A study of Mus musculus with 2208 samples.

Results

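The Bcl2 family decides whether a cell starts the mitochondrial route of apoptosis, and 10 of its genes were followed here in single microglia: Bcl2, Bcl2l1, Mcl1, Bcl2a1a, Bcl2a1b, Bcl2a1d, Bcl2l11, Bid, Bax and Bak1. They were taken by gene symbol from a table of 23951 genes, and all 10 were found. The cells came from the hippocampus of CK-p25 mice (CKp25), which develop neurodegeneration once p25 is induced, and of CK littermates as controls. Single cells with the surface markers CD11b and CD45 were sorted into plates, and their mRNA was sequenced with a modified Smart-seq2 protocol.

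Each genotype was sampled before induction at an age of 3 months (0 weeks), and at 1, 2 and 6 weeks after induction, when the mice were 3 months and 1 week, 3 months and 2 weeks, and 4 months and 2 weeks old. Every group was of 3 mice, except CKp25 at 6 weeks with 4. The p25 protein is a truncated activator of the kinase Cdk5. In this model a CaMKII promoter drives the transactivator that switches p25 on, so that p25 is made in forebrain neurons and not by design in microglia. The driver is what the CK littermates carry without p25. The mouse was the replicate throughout.

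The family has 3 kinds of members. Bcl2, Bcl2l1 (Bcl-xL), Mcl1 and the Bcl2a1 copies (A1) protect the outer mitochondrial membrane by holding their death-promoting relatives in check. Bax and Bak1 are the effectors that open that membrane and let cytochrome c out. Bcl2l11 (Bim) and Bid are initiators. Of the domains that name the family they carry only the short BH3 domain, and they set the effectors free or activate them. Bcl2a1 is known as an NF-kappaB target of myeloid cells, and Bax as a target of p53.

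The mouse genome holds several near-identical Bcl2a1 genes, and the table listed 4 of them as separate rows, with Bcl2a1c beside the 3 members. The coding sequences of Bcl2a1a, Bcl2a1b and Bcl2a1d are all on chromosome 9 and 519 bases long in the GENCODE M21 annotation (GRCm38). They differ from each other at 12 positions in all. Identity was 97.9% between Bcl2a1a and Bcl2a1b, 98.7% between Bcl2a1a and Bcl2a1d, and 98.8% between Bcl2a1b and Bcl2a1d. The longest stretch without a difference, coding bases 95 to 311, spans 217 bases, so a read that falls there cannot be given to one copy. Only coding bases were compared. The first 60 of them, which hold 6 of the 12 differences, are shown because no other stretch of 60 coding bases holds more. Capitals mark the positions at which the 3 genes are not all the same:
Bcl2a1a: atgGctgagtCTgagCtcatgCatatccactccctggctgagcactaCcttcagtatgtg
Bcl2a1b: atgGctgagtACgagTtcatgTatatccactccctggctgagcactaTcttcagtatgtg
Bcl2a1d: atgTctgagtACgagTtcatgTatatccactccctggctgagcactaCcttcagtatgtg
Because of this, values of a single Bcl2a1 copy are uncertain, and the summed FPKM of the 4 rows is given beside them. Exons of 5 members overlap other genes in GENCODE M21. They are Bid with Bcl2l13 (longest overlap 628 bases), Bcl2 with D630008O14Rik (497 bases) and Bak1 with Ggnbp1 (257 bases) on the opposite strand, and Bcl2a1b with Gm29094 (401 bases) and Bax with Gm45808 (140 bases) on the same strand. Whether counting used strand was not stated in the sources used here, and reads of these pairs may not be told apart.

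Of 2208 wells, 2028 (91.8%) reached FPKM 1 in 1000 genes or more and were kept. The groups held 182 to 284 kept cells, and the median number of genes per kept cell ranged from 1537.5 to 2994 over the 25 mice. The wells numbered first for each mouse stood apart: 19 of these 25 held over 8000 genes, and the labels do not say whether they too were single cells. Every kept cell had at least 3 of 10 microglia markers, with Csf1r in 100% and Tmem119 in 99.4% of cells. Cells with 3 or more of 6 monocyte markers were at most 0.87% of any group, and those with 3 or more neutrophil markers at most 0.37%. Those with 3 or more of 6 markers of border-associated macrophages were 0% to 4.33% of a group, and those with 3 or more oligodendrocyte markers up to 2.16%. Housekeeping genes could be listed at 0 as well (Gapdh in 24.6% of wells), so a value of 0 was read only as listed at 0.

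FPKM are per transcript length, so levels can be set side by side between genes. Averaged over the 25 mice, Bcl2l1 was the highest member at 66.7 FPKM (31.5 to 143 over mice) and was found at FPKM of 1 or more in 60.2% of the 2028 cells. Bcl2a1b followed at 54.1 FPKM (14.0 to 114), found in 40.9% of cells. The 4 Bcl2a1 rows summed were at 70.4 FPKM (16.6 to 154), found in 46.6% of cells. The order of Bcl2l1 and Bcl2a1 thus depends on whether the rows are summed. Bax at 36.2 FPKM (6.58 to 92.2), Mcl1 at 32.3 (15.7 to 44.7) and Bid at 29.8 (6.78 to 81.6) came next. The ranges of these 5 genes over mice overlap. Mcl1 was found in the most cells, 63.1%, at a median of 31.2 FPKM in the cells that had it, while Bax and Bid were found in 30.0% and 23.9% of cells at medians of 91.6 and 84.0 FPKM.

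The other 5 members were lower. Bcl2l11 was at 8.78 FPKM in 22.7% of cells, Bcl2a1a at 7.95 in 10.7%, Bcl2a1d at 4.43 in 9.66%, Bcl2 at 2.38 in 10.1% and Bak1 at 1.14 in 8.43%. The main protective genes by FPKM in these cells were thus Bcl2l1, Bcl2a1b and Mcl1, and not Bcl2, the gene that names the family. Of the effectors, Bax was above Bak1 in each of the 25 mice.

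All 10 members entered the fit. Bcl2l1, Bcl2a1b, Bax, Mcl1, Bid and Bcl2l11 reached FPKM 1 in 10% of cells or more in 25 of 25 mice, Bcl2a1a did so in 13 mice, Bcl2a1d in 12, Bcl2 in 8 and Bak1 in 7. The 8 mice of Bcl2 were 3 CKp25 and 1 CK mouse at 1 week and 2 mice of each genotype at 2 weeks.

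Levels of a mouse were averaged over its cells on the log2(FPKM + 1) scale, and a difference is CKp25 minus CK on that scale ± the standard error of the limma fit. The scale understates the change of genes found in few cells. A gene was called at an adjusted p under 0.05. At 0 weeks no member passed the threshold (0 of 10, lowest adjusted p 1.00, 0 of 10 and 1.07% of all genes at an unadjusted p under 0.05), and 0% of the 9435 genes tested did. At 1 week 2 of 10 members were higher in CKp25, Bcl2 and Bax, where 3.9% of all genes were called higher, and 0 were lower (0.392% of all genes). At 2 weeks 1 of 10 was higher, Bcl2a1b (6.14% of all genes), and 0 were lower (2.24%). At 6 weeks 1 of 10 was higher, again Bcl2a1b (4.21%), and 0 were lower (1.54%). Counts of 1 or 2 among 10 members are too small to be read against these shares as a result about the family. At an unadjusted p under 0.05 the members numbered 4, 6 and 3 at 1, 2 and 6 weeks. Of all genes 17.6%, 20.3% and 15.8% passed at that level. The members at 2 weeks include all 3 Bcl2a1 copies, which share reads. The median difference of the 10 members was 0.06, -0.02, 0.20 and 0.15 at 0, 1, 2 and 6 weeks, and that of all genes was 0.03, 0.06, -0.00 and -0.04.

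**Figure D1:**
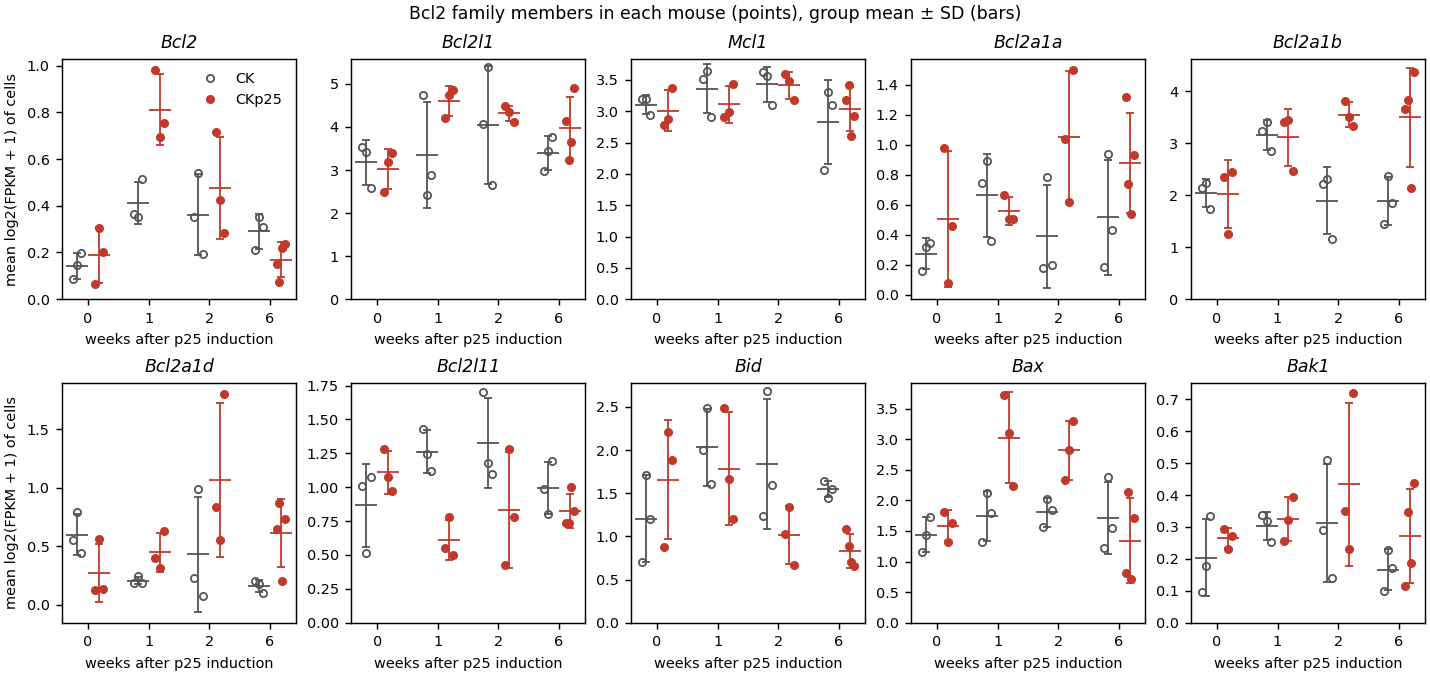
Level of each of the 10 members (y axis, mean over the cells of a mouse of log2(FPKM + 1)) by weeks after p25 induction (x axis); each point is a mouse (CK gray open, CKp25 red filled), and bars give the group mean ± SD. At 2 weeks the 3 CKp25 mice lie between 3.33 and 3.80 for Bcl2a1b and the 3 CK mice between 1.15 and 2.30.

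**Figure D2:**
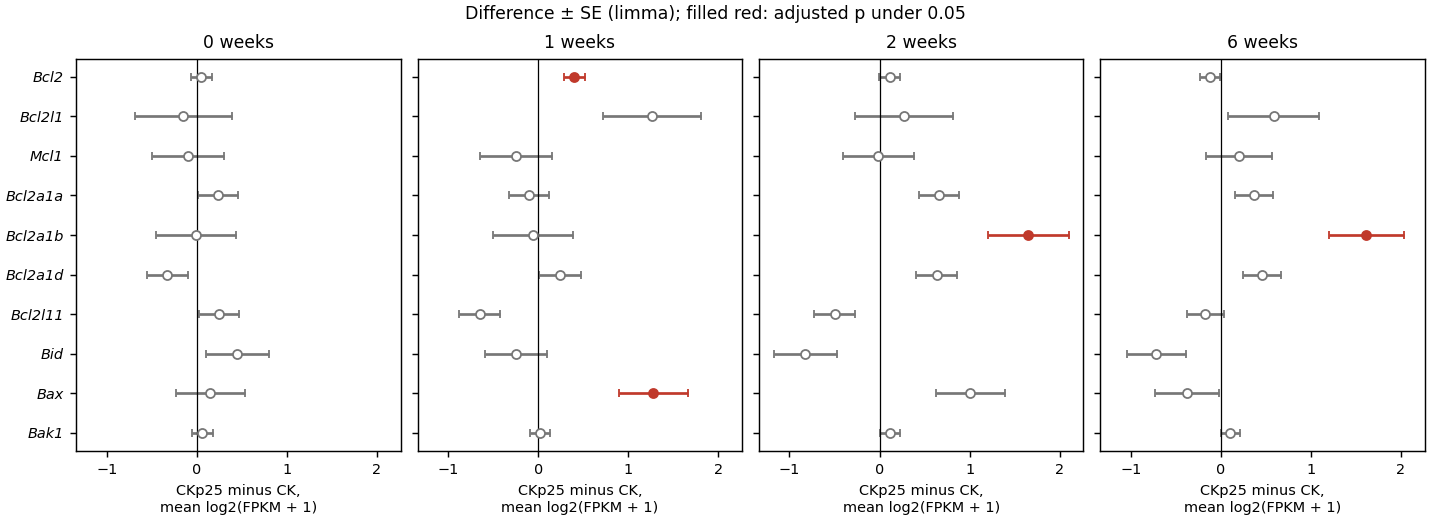
Genotype difference (x axis, CKp25 minus CK, log2(FPKM + 1) scale) ± SE from limma for the 10 members (y axis) at 0, 1, 2 and 6 weeks (panels); filled red points have an adjusted p under 0.05. Red points are Bcl2 (0.40) and Bax (1.28) at 1 week and Bcl2a1b at 2 weeks (1.65) and 6 weeks (1.61).

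Among the protective genes, Bcl2 was higher in CKp25 at 1 week. The mean log2(FPKM + 1) was 0.98, 0.70 and 0.76 in CKp25 mice 1 to 3 and 0.36, 0.35 and 0.51 in CK mice 1 to 3. Every CKp25 mouse lay above every CK mouse, as was the case for 3 of 10 members and for 12.7% of all genes. The difference was 0.40 ± 0.12 (adjusted p = 0.0375). Bcl2 was found in 27.9%, 19.3% and 16.1% of cells of the CKp25 mice and in 7.14%, 9.47% and 10.8% of cells of the CK mice. The exact permutation test over mice on these shares, 2-sided, gave p = 0.1, which is the smallest that 3 mice against 3 allow, and 40 such tests were made over members and weeks.

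At 0 weeks Bcl2 was at 0.382 ± 0.136 FPKM in CK and 0.917 ± 0.803 in CKp25 (SD, n = 3 each). At 2 weeks it was found in 13.1% ± 4.66 of cells in CKp25 and 11.5% ± 4.63 in CK (SD, n = 3 each), with a difference of 0.11 ± 0.12 (adjusted p = 0.654). At 6 weeks the difference was -0.12 ± 0.11 (adjusted p = 0.661). The difference at 1 week was called in 9 of 14 alternative settings, among them the one without the first wells (0.39, adjusted p = 0.0494). It was not past the threshold without CK mouse 1 (adjusted p = 0.151), CK mouse 2 (0.0925) or CKp25 mouse 1 (0.204) of that week.

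Bcl2l1, the member with the highest mean FPKM as a single row, was at 4.22, 4.75 and 4.87 in the CKp25 mice at 1 week. In the CK mice it was at 4.74, 2.42 and 2.89. CK mouse 1 lay within the range of the CKp25 mice, and the other two CK mice lay well below it. The difference was 1.26 ± 0.54 and did not pass the threshold (adjusted p = 0.203). Without that CK mouse it was 1.96 with an adjusted p of 0.0454, past the threshold. The difference at 1 week was called in only this 1 of 25 omissions of a mouse, and in 0 of 15 alternative settings. At 2 weeks Bcl2l1 was at 4.48, 4.35 and 4.12 in CKp25 and at 4.07, 5.40 and 2.66 in CK, with a difference of 0.27 ± 0.54 (adjusted p = 0.835). The CKp25 mice lay close together at both weeks (SD 0.35 and 0.18) and the CK mice far apart (SD 1.23 and 1.37).

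Mcl1, a protective protein with a short life time, showed no difference past the threshold. Its group means ranged from 2.83 (CK at 6 weeks) to 3.43 (CK at 2 weeks), and its differences were -0.10, -0.25, -0.01 and 0.20 at 0, 1, 2 and 6 weeks, with standard errors of 0.37 to 0.40 and adjusted p from 0.810 to 1.00. The share of cells with Mcl1 was 57.0% to 72.7% in the 8 groups.

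The Bcl2a1 copies held the largest difference of the family. At 2 weeks Bcl2a1b was at 3.80, 3.51 and 3.33 in the CKp25 mice and at 2.22, 2.30 and 1.15 in the CK mice. All CKp25 mice lay above all CK mice, as was the case for 2 of 10 members and for 12.9% of all genes, and CK mouse 3 was the lowest by far. The difference was 1.65 ± 0.45 (adjusted p = 0.0121). Bcl2a1b was found in 56.2% ± 1.15 of cells in CKp25 and in 31.2% ± 10.4 in CK (SD, n = 3 each; exact permutation p = 0.1, the smallest possible).

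At 6 weeks Bcl2a1b was at 3.65, 3.84, 2.14 and 4.36 in the CKp25 mice and at 1.44, 2.37 and 1.84 in the CK mice. CKp25 mouse 3 lay among the CK mice and the other 3 lay above them, so the groups overlapped. The difference was 1.61 ± 0.42 (adjusted p = 0.0104). The share of cells was 51.3% ± 14.0 (SD, n = 4) against 28.4% ± 7.09 (SD, n = 3), with an exact permutation p of 0.114 where 0.0571 is the smallest possible.

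Before induction Bcl2a1b was at 2.02 ± 0.66 in CKp25 and 2.03 ± 0.27 in CK (SD of the mean log2 value, n = 3 each). At 1 week the group means were 3.11 ± 0.55 in CKp25 and 3.16 ± 0.29 in CK, with a difference of -0.05 ± 0.45 (adjusted p = 0.970). The order of the 8 group means was CK at 6 weeks (1.88), CK at 2 weeks (1.89), CKp25 at 0 weeks, CK at 0 weeks, CKp25 at 1 week, CK at 1 week, CKp25 at 6 weeks (3.50) and CKp25 at 2 weeks (3.55). Neighbours within the lower 4 and within the upper 4 groups differed by less than their spread over mice. The gap lay between CK at 0 weeks and CKp25 at 1 week.

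The call for Bcl2a1b held in 12 of 14 alternative settings at 2 weeks and in 12 of 14 at 6 weeks, among them the fit with genes per cell as a covariate. Without the first wells the differences were 1.64 (adjusted p = 0.0161) and 1.67 (adjusted p = 0.00895). It was lost at 2 weeks without CK mouse 3 (1.28, adjusted p = 0.114) or CKp25 mouse 1 (1.53, adjusted p = 0.0552), and at 6 weeks without CK mouse 1 (1.39, adjusted p = 0.0772) or CKp25 mouse 4 (1.33, adjusted p = 0.0704). With the log taken after averaging FPKM over cells, the difference was 1.06 at 2 weeks (adjusted p = 0.279) and 0.56 at 6 weeks (adjusted p = 0.586). On that linear scale CK mouse 2 at 6 weeks had the highest Bcl2a1b level of all 25 mice, 114 FPKM, with the gene in 34.0% of its cells.

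Bcl2a1a and Bcl2a1d had differences of the same sign that did not pass the threshold. At 2 weeks they were 0.66 ± 0.22 (adjusted p = 0.0580) and 0.64 ± 0.23 (adjusted p = 0.0875), and CKp25 mouse 3 was the highest mouse for both, at 1.50 and 1.81. At 6 weeks they were 0.36 ± 0.21 (adjusted p = 0.424) and 0.46 ± 0.21 (adjusted p = 0.290). Bcl2a1b took the largest part of the summed Bcl2a1 FPKM in 25 of 25 mice, with a median of 77.4% (54.9% to 91.3%).

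The summed FPKM of the 4 Bcl2a1 rows was compared as well. It may still depend on how reads were split, since FPKM are per length and Bcl2a1c has 387 coding bases against 519. At 2 weeks its mean log2 value was 4.19, 3.85 and 4.56 in CKp25 and 2.45, 3.24 and 1.30 in CK, with no overlap. The difference was 1.87 ± 0.51 (adjusted p = 0.0126). At 6 weeks it was 4.27, 4.32, 2.69 and 4.87 in CKp25 and 1.60, 2.93 and 2.19 in CK, where CKp25 mouse 3 fell among the CK mice, and the difference was 1.80 ± 0.47 (adjusted p = 0.0129). At 0 and 1 week the differences were -0.04 ± 0.51 and -0.04 ± 0.51. In the 2028 cells no member copy was found in 53.6%, 1 copy in 34.2%, 2 in 9.42% and all 3 in 2.76%, and the median number of genes per cell went from 2176 to 2552.5, 2830 and 3730 along these classes.

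**Figure D3:**
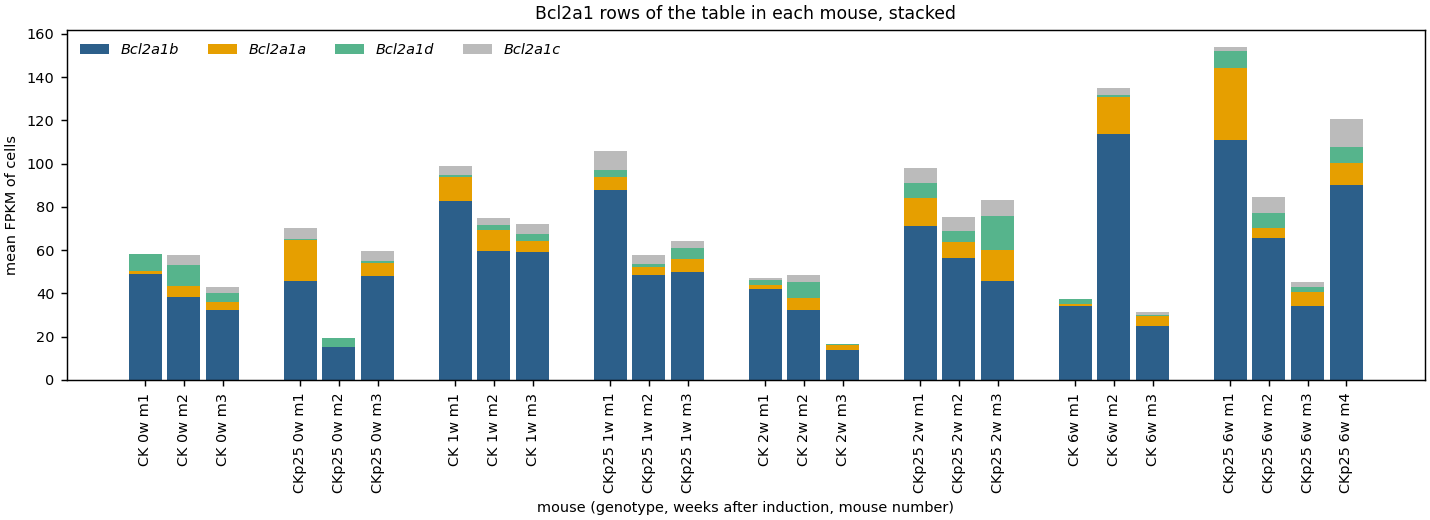
Mean FPKM over the cells of each mouse (y axis) of the 4 Bcl2a1 rows, stacked, for the 25 mice (x axis, grouped by week and genotype). Bcl2a1b is the largest part of each bar, and the summed level runs from 16.6 FPKM in CK mouse 3 at 2 weeks to 154 FPKM in CKp25 mouse 1 at 6 weeks.

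Bcl2a1 is also made by other myeloid cells, so the markers of those cells are given beside it. The summed FPKM of 6 monocyte markers was 25.2 to 30.1 in the CKp25 mice and 0.31 to 21.0 in the CK mice at 2 weeks, and 6.57 to 54.9 and 0.78 to 27.4 at 6 weeks. In CKp25 at 2 weeks 4 of the 6 were found, and F13a1 was at 0. Of 5 neutrophil markers 1 was found in CKp25 at 2 weeks and at 6 weeks, and S100a8, S100a9, Retnlg and Mmp8 were at 0 in both groups. Cells with 3 or more monocyte markers made up 0.39% of CKp25 cells at 2 weeks and 0.87% at 6 weeks, against 56.2% and 51.3% with Bcl2a1b. The summed FPKM of 6 markers of border-associated macrophages, which share F13a1 with the monocyte list, was 0.129 to 2.45 in CKp25 and 0.623 to 145 in CK at 2 weeks. At 6 weeks it was 33.3 to 172 in CKp25 and 2.06 to 77.8 in CK. In CKp25 at 2 weeks 5 of the 6 were found, with F13a1 at 0, and 6 of 6 were found in the other 3 groups. The share of cells with 3 or more of them was 0% in CKp25 against 1.41% in CK at 2 weeks, and 4.33% against 2.198% at 6 weeks. The summed FPKM of the 10 microglia markers was lower, at 7803 to 8286 in CKp25 and 11687 to 20439 in CK at 2 weeks, and 4215 to 7193 and 10156 to 11731 at 6 weeks. The part of these lists in the Bcl2a1b result was not tested.

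Of the initiators, Bcl2l11 was below all CK mice in each CKp25 mouse at 1 week, without passing the threshold. Its mean log2 level was 0.55, 0.78 and 0.50 in CKp25 and 1.43, 1.24 and 1.12 in CK. The groups did not overlap, in the lower direction, which held for 1 of 10 members and for 7.94% of all genes. The difference was -0.65 ± 0.22 (adjusted p = 0.0926), and it kept this sign in each of the 15 alternative settings, with adjusted p from 0.0578 to 0.222. Bcl2l11 was found in 15.8% ± 6.03 of CKp25 cells and 27.3% ± 1.17 of CK cells (SD, n = 3 each; exact permutation p = 0.1). At 2 weeks the difference was -0.50 ± 0.22 (adjusted p = 0.182) and at 6 weeks -0.17 ± 0.21 (adjusted p = 0.775).

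Bid, which caspase-8 cuts to link death receptors to mitochondria, had negative differences at 2 and 6 weeks that did not pass the threshold. At 2 weeks it was at 1.02, 1.34 and 0.67 in CKp25 and at 1.24, 2.68 and 1.59 in CK, with CKp25 mouse 2 above the lowest CK mouse. The difference was -0.83 ± 0.35 (adjusted p = 0.150). At 6 weeks it was at 1.08, 0.89, 0.70 and 0.66 in CKp25 and at 1.64, 1.45 and 1.55 in CK, and all CKp25 mice lay below all CK mice, as for 1 of 10 members and 6.68% of all genes. The difference was -0.71 ± 0.33 (adjusted p = 0.258), and the share of cells was 15.0% ± 1.76 (SD, n = 4) against 24.5% ± 1.29 (SD, n = 3; exact permutation p = 0.0571, the smallest possible). With the log taken after averaging FPKM, Bid at 2 weeks was the one member past the threshold, at -1.79 (adjusted p = 0.0266), where the median of all genes was -0.35.

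Of the effectors, Bax was higher in CKp25 at 1 week. It was at 3.73, 3.10 and 2.24 in the CKp25 mice and at 1.32, 2.12 and 1.80 in the CK mice. The groups did not overlap, with CKp25 mouse 3 just above CK mouse 2, and the difference was 1.28 ± 0.38 (adjusted p = 0.0420). Bax was found in 52.3%, 52.3% and 33.3% of cells of the CKp25 mice and in 19.0%, 33.7% and 25.8% of cells of the CK mice, with CK mouse 2 above CKp25 mouse 3 (exact permutation p = 0.2).

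At 2 weeks Bax was at 2.34, 2.82 and 3.30 in CKp25 and at 1.56, 2.03 and 1.84 in CK. The groups again did not overlap, but the difference of 1.01 ± 0.38 did not pass the threshold (adjusted p = 0.0955). At 6 weeks it was at 0.81, 2.13, 0.71 and 1.71 in CKp25 and at 1.23, 2.38 and 1.54 in CK, with a difference of -0.38 ± 0.36 (adjusted p = 0.682). The call at 1 week held in 9 of 15 alternative settings, among them the one without the first wells (1.26, adjusted p = 0.0489). It was lost without CK mouse 2 of 0 weeks (adjusted p = 0.0516), CK mouse 1 (0.239) or 3 (0.0973) or CKp25 mouse 1 (0.267) or 2 (0.155) of 1 week.

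Bak1, the other effector, was near the lowest level that could be followed. Its group means were 0.845 to 1.65 FPKM, it was found in 4.35% to 14.3% of cells, and its differences were 0.06, 0.02, 0.12 and 0.11 at 0, 1, 2 and 6 weeks with standard errors of 0.10 to 0.11 and adjusted p from 0.610 to 1.00.

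The stretch upstream of Bax is shown because Bax was called and is a known p53 target. It was taken with those of the other members from RefSeq (GRCm38.p6, not the build of the table), where 10 of 10 members had 13 windows of 300 bases, 250 before and 50 after a start. The 250 bases before the Bax start, chr7:45466899-45467148 on the minus strand, read as follows, with a match to the p53 response element decamer in capitals:
Bax upstream: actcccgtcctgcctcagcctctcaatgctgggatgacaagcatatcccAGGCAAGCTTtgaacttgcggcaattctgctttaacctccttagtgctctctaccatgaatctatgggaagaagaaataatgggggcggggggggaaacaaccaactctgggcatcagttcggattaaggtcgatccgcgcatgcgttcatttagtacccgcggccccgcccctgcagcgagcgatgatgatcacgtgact
The match starts 201 bases upstream. On both strands, the p53 decamer was in 1 of the 13 windows and in 8.36% of 32851 RefSeq promoter windows. A kappaB motif was in 1 of the 13, a window of Bcl2l1, and in 8.46% of all. The interferon-stimulated response element (GAAA, any 2 bases, GAAA) was in 0 of the 13 and in 3.44% of all. These are matches of letters, at about the share of all promoters, and not sites.

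Within CKp25, Bcl2, Bax, Bcl2a1b and Bcl2a1d were called higher at later weeks. Against CKp25 mice at 0 weeks, Bcl2 rose by 0.62 ± 0.12 (adjusted p = 0.000304) and Bax by 1.43 ± 0.38 (adjusted p = 0.0114) at 1 week, 2 of 10 members against 9.55% of all genes called higher. At 2 weeks Bax was 1.23 ± 0.38 higher (adjusted p = 0.0250), Bcl2a1b 1.53 ± 0.45 (adjusted p = 0.0164) and Bcl2a1d 0.80 ± 0.23 (adjusted p = 0.0195), 3 of 10 against 11.1%. At 6 weeks Bcl2a1b alone passed among the members, at 1.48 ± 0.42 (adjusted p = 0.0193), 1 of 10 against 4.63%. With the mouse number as a block that value was 1.19, not past the threshold (adjusted p = 0.0667). No member was called lower in these comparisons, where 0.127%, 1.44% and 2.38% of all genes were.

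These comparisons share the CKp25 mice at 0 weeks and those against CK share the later CKp25 mice. Genes per cell moved with the weeks: the mouse medians were 1964 to 2449 in CKp25 at 0 weeks and 2502.5 to 2994 at 2 weeks. With genes per cell as a covariate the week 2 calls were lost, for Bax at 0.44 (adjusted p = 0.510), Bcl2a1b at 0.79 (adjusted p = 0.305) and Bcl2a1d at 0.62 (adjusted p = 0.181), and at 1 week that of Bax was just lost at 1.03 (adjusted p = 0.0514). CKp25 mouse 2 at 0 weeks, the lowest of its group for Bcl2a1b at 1.26, bore on them too: without it Bcl2a1b was at 1.15 at 2 weeks (adjusted p = 0.147) and 1.10 at 6 weeks (adjusted p = 0.198), and Bax at 1.30 at 1 week (adjusted p = 0.0658) and 1.09 at 2 weeks (adjusted p = 0.108).

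In CK mice no member passed the threshold against 0 weeks at 1, 2 or 6 weeks (0 of 10 in each, lowest adjusted p 0.389, 0.764 and 1.00), and neither did any other gene (0%). At an unadjusted p under 0.05 the members numbered 3, 1 and 0, against 10.5%, 5.82% and 2.94% of all genes. The test of whether the genotype difference itself changed between weeks called 0 of 10 members in each of its 5 forms, with 3, 4, 3, 2 and 1 members at an unadjusted p under 0.05. At that unadjusted level 9.49%, 12.6%, 9.39%, 8.32% and 5.60% of all genes passed, in the same order. After adjustment it called, among all genes, 1.13% for 1 against 0 weeks, 2.63% for 2 against 0, 1.8% for 6 against 0, 1.71% for 2 against 1 and 0.0424% for 6 against 2. The lowest adjusted p of a member was 0.132, for Bcl2a1d at 2 against 0 weeks, and Bcl2a1b was at 1.67 ± 0.63 (adjusted p = 0.191) in that test. A difference at 1 or 2 weeks and none at 0 weeks is thus not shown to be a change between weeks for any member.

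Cells with cell cycle genes were counted beside these results, from a list of 7 (Top2a, Mki67, Ccnb1, Cdk1, Rrm2, Tk1 and Uhrf1). Of these, 6 entered the fit through CKp25 mice alone and Cdk1 through 6 CKp25 mice and 1 CK mouse, so their own differences are not given. Cells with at least 2 of the 7 numbered 76 of 267 in the CKp25 mice and 6 of 272 in the CK mice at 1 week. These cells held more genes, with mouse medians of 2984 to 3644 against 1925 to 2589 in the other CKp25 cells.

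Bax was found in 77.3%, 64.5% and 52.2% of the CKp25 cells with cell cycle genes in mice 1 to 3 and in 43.8%, 45.6% and 27.1% of those without. Bcl2 was found in 45.5%, 35.5% and 34.8% of the cells with cell cycle genes and in 14 of 64, 6 of 57 and 7 of 70 of the others. Bcl2l1 was found in 100%, 83.9% and 87.0% against 53.1%, 73.7% and 68.6%. The share was higher in the cells with cell cycle genes in 3 of 3 mice for 9 of the 10 members and in 2 of 3 for Mcl1. It was also higher in 3 of 3 mice for 71.3% of the 9435 genes tested, so 9 of 10 is not read as a result about the members. The depth of these cells differs as given, so its part in these shares was not tested.

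Among the cells without cell cycle genes, Bax was at 3.13, 2.71 and 1.95 in the CKp25 mice and at 1.32, 2.09 and 1.78 in the CK mice, so that the groups overlapped. Bcl2 was at 0.89, 0.42 and 0.43 in CKp25 and at 0.36, 0.35 and 0.50 in CK, with overlap too. For Bcl2l11 the same cells gave 0.59, 0.79 and 0.40 in CKp25 and 1.43, 1.24 and 1.07 in CK, and the mice remained apart. The cells left out came mostly from CKp25 mice and held more genes than the rest. The share of all genes that stay apart in the remaining cells is not given here. The part of the cell cycle or of depth in these values was not tested. The mean was 2.60 ± 0.60 against 1.73 ± 0.39 for Bax, and 0.58 ± 0.26 against 0.40 ± 0.08 for Bcl2 (SD, n = 3 each).

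At 2 weeks 40 of 258 CKp25 cells and 4 of 284 CK cells had at least 2 of the 7 cell cycle genes. Among the other cells, looked at after the 1 week values were seen, Bcl2a1b was at 3.85, 3.26 and 3.47 in the CKp25 mice and at 2.22, 2.21 and 1.13 in the CK mice. The groups did not overlap in these cells, and the share of all genes for which this held is not given here.

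**Figure D4:**
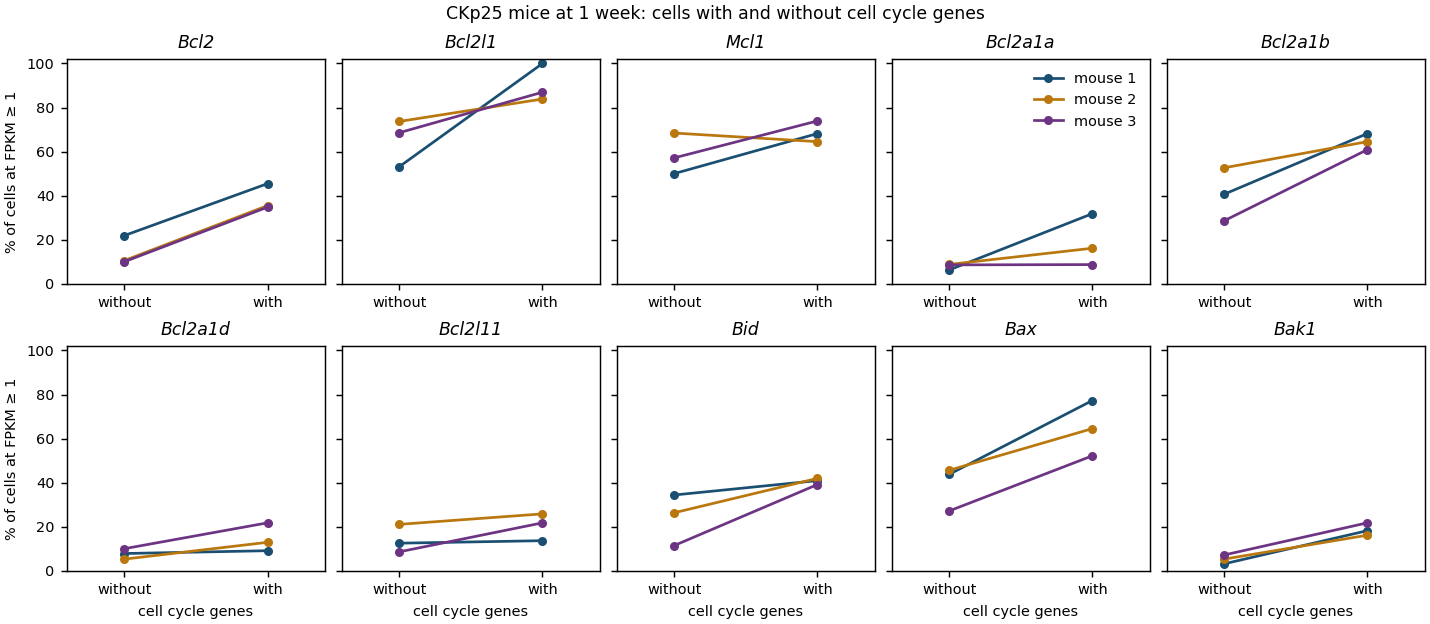
Share of cells with each member at FPKM of 1 or more (y axis, percent) in the 3 CKp25 mice at 1 week, for cells without and with at least 2 cell cycle genes (x axis); lines join the values of a mouse. The lines rise in 3 of 3 mice for 9 members, with Bcl2l1 in 100% of the cells with cell cycle genes in mouse 1.

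A kept cell held a median of 2 or 3 members in each group. The mean was 2.26 in CK and 2.37 in CKp25 at 0 weeks, 2.81 and 3.20 at 1 week, 2.89 and 3.51 at 2 weeks, and 2.42 and 2.81 at 6 weeks. No member was found in 3.17% to 10.4% of the cells of a group. Protective and death-promoting members could be found in the same cells: 66.3% of the 608 cells with Bax had Bcl2l1 and 71.2% had Mcl1, and 70.1% of the 461 cells with Bcl2l11 had Mcl1. In all cells Bcl2l1 and Mcl1 were found in 60.2% and 63.1%. Cells with a member held more genes than the other cells for each of the 10, for example a median of 2893.5 against 2324.5 for Bcl2.

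Of the 196 cells with Bcl2a1d, 78.6% had Bcl2a1b, which 40.9% of all cells had, and 31.6% had Bcl2a1a, which 10.7% of all cells had. Bak1 was found in 23.0% of them and in 8.43% of all cells. The part of reads shared by the copies and of depth in these values was not tested.

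Across the 25 mice the profile of Bcl2a1b was most like those of the ribosomal protein genes Rpl22 (Pearson r = 0.89), Rps19 (0.89) and Rps15a (0.88). That of Bcl2a1a was nearest to Fnip2 (0.83), Rps3a1 (0.80) and Rps27 (0.79), and that of Bcl2a1d to Gm6548 (0.83), Daam1 (0.78) and Siglec1 (0.77). Bax was nearest to Adrm1 (0.89), Atp5g1 (0.88) and Arpc2 (0.86). Bcl2 was nearest to Slc35b1 (0.86), 2810417H13Rik (0.85) and Mrpl17 (0.85). Bid was nearest to Tmem44 (0.90), Fam219b (0.84) and Gcnt1 (0.83).

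Judged by the nearest gene of each, likeness was weaker for the other members. It was Copa (0.80), Rgs10 (0.72) and N4bp1 (0.72) for Mcl1, and Psmd13 (0.74), Ptpn6 (0.74) and Gpr84 (0.73) for Bcl2l1. It was Ddx50 (0.73), Acat3 (0.72) and Bdp1 (0.72) for Bak1, and Mtx3 (0.68) and Zbtb4 (0.68) for Bcl2l11. Between members the highest correlations were 0.69 for Bcl2a1d with Bak1, 0.68 for Bcl2a1a with Bcl2a1b and 0.65 for Bcl2 with Bax, and the lowest was -0.44 for Bcl2l11 with Bcl2a1d. All are over 25 mice that share groups and differ in depth, and each list is the top of 9435 genes.

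The other genes of the pathway were read from 4 lists. Of 16 other Bcl2 family genes 9 entered the fit, and 0 were called at 0 or 1 week, 1 higher at 2 weeks and 1 higher at 6 weeks. Both times it was Pmaip1 (Noxa), an initiator that binds Mcl1, with a difference of 0.88 ± 0.15 at 2 weeks and 0.77 ± 0.14 at 6 weeks. Pmaip1 was found in 21.0% ± 3.17 of CKp25 cells and 4.29% ± 3.82 of CK cells at 2 weeks (SD, n = 3 each). It entered the fit through 9 mice, all CKp25. Since only the higher group let it pass the filter, its p-values are not given and its calls are not read as results. Bnip3 (0.76 ± 0.25, adjusted p = 0.0530) did not pass at 2 weeks. The fourth Bcl2a1 row, Bcl2a1c, was at 0.38 ± 0.13 at 2 weeks. It entered the fit through 3 mice, all CKp25, so its p-values are not given either.

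Cycs, the cytochrome c released by the effectors, was at 0.86 ± 0.35 at 2 weeks (adjusted p = 0.123). Of 10 inhibitors of apoptosis 9 entered, and 1 was called, higher at 1 week. It was Birc5 (survivin), which also serves in mitosis, at 1.07 ± 0.17 (adjusted p = 1.19e-05). At 2 weeks Naip2 was at 0.61 ± 0.31 (adjusted p = 0.271), Birc3 at 0.34 ± 0.21 (adjusted p = 0.400) and Cflar at -0.56 ± 0.38 (adjusted p = 0.448).

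Of 13 genes of death receptors and necroptosis 9 entered, and 1 was called higher at 2 weeks and 1 higher and 1 lower at 6 weeks. Zbp1, a sensor of nucleic acids that can start necroptosis, was at 2.57 ± 0.31 at 2 weeks and 1.62 ± 0.29 at 6 weeks. It was found in 41.3% ± 5.82 of CKp25 cells and 1.06% ± 0.0261 of CK cells at 2 weeks (SD, n = 3 each). These CK mice held 92 to 96 kept cells each. The CK share thus rests on very few cells, and its small SD is no sign of precision. The p-values of Zbp1 are not given and its calls are not read as results either, since it entered the fit through 6 mice, all CKp25. Casp8, the protease that cuts Bid, was lower at 6 weeks, at -1.39 ± 0.38 (adjusted p = 0.0172). Ripk3 and Mlkl, which carry out necroptosis, did not enter the fit. Tnfrsf1b (-1.10 ± 0.43, adjusted p = 0.107) and Tradd (0.38 ± 0.16, adjusted p = 0.170) did not pass at 2 weeks.

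Of 12 genes of the p53 list 11 were in the table and 9 entered, and 1 was called higher at 1 week and 1 at 2 weeks. Both times it was Cdkn1a (p21), the cell cycle inhibitor, at 1.62 ± 0.32 at 1 week (adjusted p = 0.000591) and 1.73 ± 0.32 at 2 weeks (adjusted p = 0.000136). Trp53 and Mdm2 were at 0.69 and 0.73 at 1 week (adjusted p = 0.387 and 0.232). Aen (0.35 ± 0.16, adjusted p = 0.190) and Ccng1 (0.52 ± 0.28, adjusted p = 0.288) did not pass at 2 weeks. The medians of the 4 lists were between -0.09 and 0.27 at 1, 2 and 6 weeks, and those of all genes between -0.04 and 0.06.

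**Figure D5:**
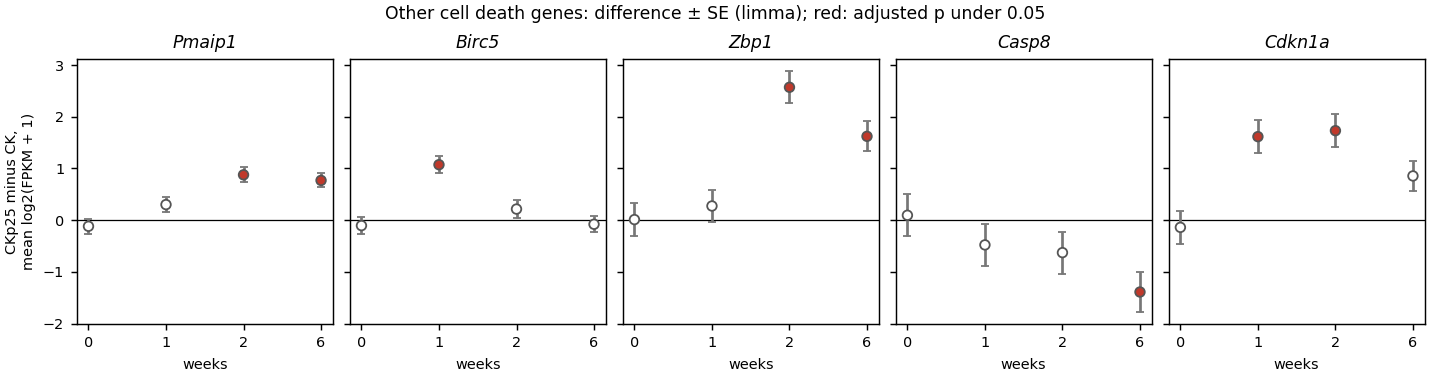
Genotype difference (y axis, CKp25 minus CK, log2(FPKM + 1) scale) ± SE from limma at 0, 1, 2 and 6 weeks (x axis) for the 5 genes of these 4 lists that passed the threshold at some week; red points have an adjusted p under 0.05. Zbp1 reaches 2.57 at 2 weeks, and Casp8 is lowest at 6 weeks with -1.39. Pmaip1 and Zbp1 entered the fit through CKp25 mice alone, so their red points are not read as test results.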

How the data were processed

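The deposited table held FPKM (fragments scaled by transcript length and by the mapped fragments of a well) for 23951 genes in 2208 wells, made by the authors from Smart-seq2 libraries. Per the submitters' processing notes, Cufflinks 2.2 and the genome build mm9 were used. The name of the deposited data holds that of the aligner TopHat. Aligner settings, annotation, strand setting and filters were not stated in the sources used here. FPKM keep no read counts, so the depth of a value is unknown. The submitters state a median of 251353 mapped reads per cell for 2183 libraries.

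Wells were kept if 1000 genes or more reached FPKM 1. No doublet caller was run, as it needs molecule counts. The profile of a mouse was the mean over its kept cells of log2(FPKM + 1). The 9435 genes that reached FPKM 1 in 10% of cells or more, in 3 mice or more, were fitted with limma 3.58.1 in R 4.3.3 (trend and robust options, 8 groups, 17 residual degrees of freedom, no covariate). All tests were 2-sided. The p-values were adjusted over these genes by Benjamini-Hochberg, with a threshold of 0.05. Shares of cells were compared by exact permutation of mice. The other steps ran in Python 3.11.15 (pandas 2.3.3, numpy 2.4.6, scipy 1.17.1). The fit was also run on simulated profiles with independent normal values for each gene and mouse. These lack the shared deviations of real mice, so that run does not vouch for the calls here. The members and gene lists were chosen with earlier results of these data known. Of the lists, genes past the threshold at 1, 2 or 6 weeks and up to 3 by smallest p at 2 weeks are named. For each member the 3 genes with the highest Pearson correlation over mice are named. Some results for genes under these rules are not reported here. The alternatives changed the pseudocount, the averaging, the filters on wells and genes, the scaling, the mice fitted, the covariates and the first wells, summed the Bcl2a1 rows, and left out each mouse in turn. Promoter motifs were chosen after the values were seen.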

Additional observations from a re-analysis of the deposited data

How the results depend on the processing

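The number of members called was 0 at 0 weeks in each setting run. At 1 week it was 2, and became 0 with log2(FPKM + 10), with the log of the mean FPKM, with no filter on low values, with genes in at least 25% of cells (6 members tested) and with only the groups compared, and 1 with the share of cells as the value and with quantile normalization. At 2 weeks it was 1, and became 2 with log2(FPKM + 0.1) and with the share of cells, and 0 with no filter. At 6 weeks it was 1, and became 0 with the log of the mean FPKM and with no filter. Leaving out 1 mouse at a time gave 0 to 2 members at 1 week, 0 to 3 at 2 weeks and 0 to 1 at 6 weeks. It was 0 at 1 week without CKp25 mouse 1. At 2 weeks it was 0 without CK mouse 3 or CKp25 mouse 1 and 3 without CK mouse 2 or CKp25 mouse 2, and at 6 weeks 0 without CK mouse 1 or CKp25 mouse 4. No called difference of a member changed sign. The log of the mean FPKM moved the median of all genes to -0.17, -0.35 and -0.18 at 1, 2 and 6 weeks, and log2(FPKM + 0.1) to 0.13 at 1 week. Same-numbered mice of the 2 genotypes had correlated deviations in 8 of 12 pairs (r over 0.1; range -0.12 to 0.35), and 8 of 12 were most like their own number. Since this did not hold for every pair, and the labels tie no number to a shared source, the numbers were not taken to pair the mice, which is not shown either way. With the mouse number as a replicate block the counts were 0, 2, 1 and 1, as without it, and Bcl2a1b in CKp25 at 6 against 0 weeks was no longer past the threshold (1.19, adjusted p = 0.0667). That block gives each number the same effect in all weeks and both genotypes, so it does not model pairs within a week. It cannot show whether such pairing matters. The block takes up CKp25 mouse 4 at 6 weeks whole, since no other mouse has that number. The first wells did not change a count. Depth behind single values is unknown, and members in about 10% of cells rest on few cells per mouse.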
